A study of Homo sapiens with 4 samples.

Results

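Long intergenic noncoding RNAs that carry a systematic LINC name were followed in SCC13 cells, a cell line grown out of a human skin squamous carcinoma. Members were chosen by name and total count, as the genes of the deposited count table whose symbol is LINC and a number and whose counts over the 4 libraries summed to at least 40. Of 60617 genes in the table, 1942 had such a name. Of these, 1338 had 0 counts in every library, 430 had 1 to 39 counts, and 174 were members. PolyA RNA was sequenced from SCC13 cells grown in CnT-07 medium and infected with lentivirus, carrying either an shRNA against CELF2 (CELF2 knockdown, 2 libraries) or a scrambled shRNA (control shRNA, 2 libraries). Both groups had the same wild-type background, and both are infected cultures of 1 line. Nothing in the labels ties the replicates to separate cultures, so every p-value rests on the spread between these libraries alone, and that spread may be technical.

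Long noncoding RNAs are transcribed by RNA polymerase II, capped and spliced like mRNAs, and do not encode a known long protein. The LINC prefix is a systematic name given to genes that lie between protein-coding genes, often before any function is known. Some act in the nucleus on chromatin or on neighbouring genes, some bind proteins or microRNAs, and many are turned over quickly by the nuclear exosome. CELF2 is an RNA-binding protein that acts on splicing, stability and translation of its target RNAs.

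The libraries held 19928788 and 23177056 counts in the CELF2 knockdown and 27898889 and 17649090 counts in the control shRNA. In CPM, which is counts scaled to library depth and here TMM-normalized, 3 counts were worth 0.148 and 0.126 in the knockdown and 0.107 and 0.178 in the control. The targeted gene could not check the labels, since CELF2 had 0 and 0 counts in the knockdown and 1 and 0 counts in the control. All 10 squamous keratinocyte markers were counted, with summed levels of 20117 to 28126 CPM in the knockdown and 12719 to 20517 CPM in the control. Of 8 fibroblast markers, 5 (COL1A2, COL3A1, DCN, LUM and THY1) were at 0, and the summed level was 21.1 to 38.1 CPM in the knockdown against 13.3 to 16.3 CPM in the control. Of 6 melanocyte markers, MLANA, TYR and TYRP1 were at 0, with sums of 9.03 to 9.05 CPM in the knockdown and 6.12 to 8.83 CPM in the control. The 5 endothelial markers summed to 1.83 to 2.23 CPM in the knockdown and 0.356 to 0.679 CPM in the control, and 5 of 8 immune markers were at 0. The part of these markers in the results was not tested.

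The members as a group were counted more in the CELF2 knockdown. Their summed level was 830 and 756 CPM in the knockdown libraries and 590 and 625 CPM in the control libraries, a ratio of the group means of 1.31. Both knockdown libraries lay above both control libraries. In bulk RNA, a change in the number of cells that make an RNA and a change in RNA per cell cannot be told apart. LINC00514 alone, now named GREP1, held much of the difference, and its exons overlap those of a gene that GENCODE v29 gives as protein-coding. Without LINC00514 the other 173 members summed to 706 and 691 CPM in the knockdown and 570 and 588 CPM in the control. Their ratio of the group means was 1.21. The 133 members that lie apart from protein-coding genes summed to 453 and 479 CPM in the knockdown against 372 and 386 CPM in the control. The 10 most counted members held 34.2% of all counts on members. With 2 libraries against 2 no permutation of the libraries could bring such a sum under the threshold of 0.05, so no p is given.

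**Figure D1:**
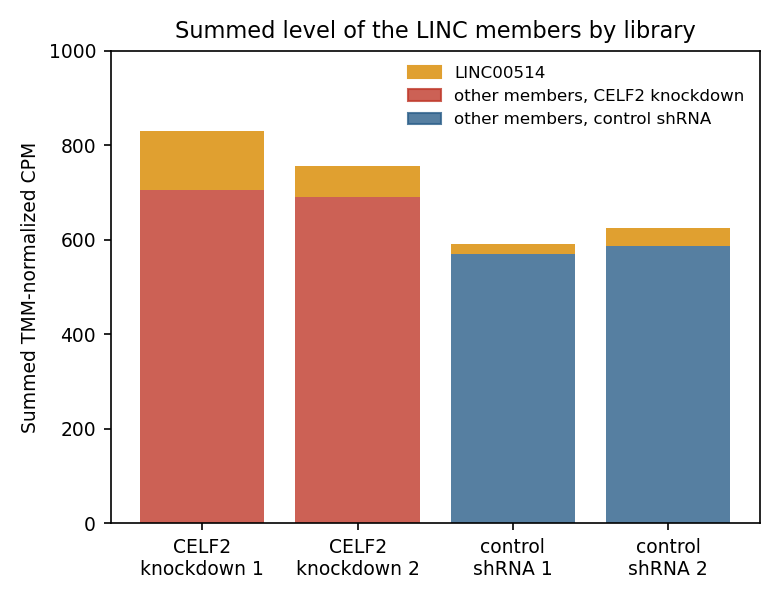
Summed level of the 174 LINC members in each library, in TMM-normalized CPM, with 1 bar per library and the share of LINC00514 set apart. The CELF2 knockdown libraries reach 830 and 756 CPM and the control shRNA libraries 590 and 625 CPM, and the order of the groups is the same without LINC00514.

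No member passed the test on its own. Of the 174 members, 167 passed the filter on low counts, and 0 had an adjusted p under 0.05 in edgeR's quasi-likelihood test (Benjamini-Hochberg over 15171 genes). Over all tested genes 0.877% were called, 0.606% higher and 0.27% lower, and the members' share of 0 lies near that background. The smallest adjusted p of a member was 0.0565, and 7 members were under 0.1. An unadjusted p under 0.05 was reached by 31 members, 18.6% of those tested, against 22.1% of all genes. Limma-voom also called 0 members, with 28 at an unadjusted p under 0.05 (16.8%, against 22.4% of all genes), and it called 0 genes in all. With RLE size factors edgeR called 0 members and 1.39% of all genes. With the replicate number as a block it called 12 members (7.19%, against 10.4% of all genes). Of these, 11 were higher (6.59%, against 6.28%) and 1 lower (0.599%, against 4.13%). DESeq2 called 9 of the 154 members for which it gave an adjusted p (5.84%, against 9.48% of all genes). It called 8 higher (5.19%, against 5.3% of all genes) and 1 lower (0.649%, against 4.18%). The 8 were LINC00514, LINC02577, LINC00957, LINC00668, LINC00888, LINC01615, LINC02298 and LINC02635, and the 1 lower was LINC00342. With no filter on low counts edgeR called 21 of 174 members (12.1%, against 8.25% of all genes), 19 higher (10.9%, against 5.18%) and 2 lower (1.15%, against 3.07%). The members had at least 40 counts by the rule, and this fit holds genes with fewer. Over its 15110 genes with at least 40 counts, 13.8% were called, 8.58% higher and 5.24% lower. In the edgeR fit without CELF2 knockdown replicate 1, 4 members were called higher and 1 lower (2.91% in all, against 2.31% of all genes). Without control shRNA replicate 2 the counts were 2 higher and 1 lower (1.72% in all, against 3.8% of all genes). No member was called without CELF2 knockdown replicate 2, with 0.0444% of all genes called, or without control shRNA replicate 1, with 0 genes called.

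The differences leaned upward. The log2 fold change was above 0 in 109 tested members (65.3%) and below 0 in 58, against 49.6% of all genes above 0. Its median was 0.25 over the members (quartiles -0.17 and 0.82) and -0.00 over all tested genes (quartiles -0.29 and 0.37). Both knockdown libraries lay above both control libraries in 59 members (35.3%, against 27.1% of all genes) and below them in 19 (11.4%, against 27.8% of all genes). Together 46.7% of members did not overlap between groups, fewer than the 54.9% of all genes. At an unadjusted p under 0.05, 29 members were higher and 2 lower (17.4% and 1.2%), against 12.1% and 9.97% of all genes.

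Most members were low, and at low levels their median difference lay near that of other genes. The median member averaged 1.56 CPM, against 21.7 CPM over all tested genes, and per length the medians were 0.819 RPKM for members and 5.55 RPKM for tested protein-coding genes. The median standard error of a log2 fold change was 0.49 for members and 0.25 for all genes. Of the tested members, 45 averaged under 1 CPM and had a median log2 fold change of 0.30, against 0.23 for all 1551 genes in that range. Of these 45, 33.3% were higher and 13.3% lower without overlap, against 32.4% and 17.5% of genes in the range. A further 105 averaged 1 to 10 CPM and had a median of 0.18, against 0.18 for the 3960 genes in that range. Of these 105, 34.3% were higher and 12.4% lower without overlap, against 34.7% and 19.1% of genes in the range. These differences between members and genes of like level were not tested. The remaining 17 averaged at least 10 CPM and had a median of 0.53, against -0.06 for 9660 genes. Levels are not matched in this open range, with a median of 17.0 CPM for these members and 47.0 CPM for the genes. Of these 17, 8 were higher in the knockdown with no overlap (47.1%, against 23.1% of genes at that level) and 0 were lower (against 33.1%).

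**Figure D2:**
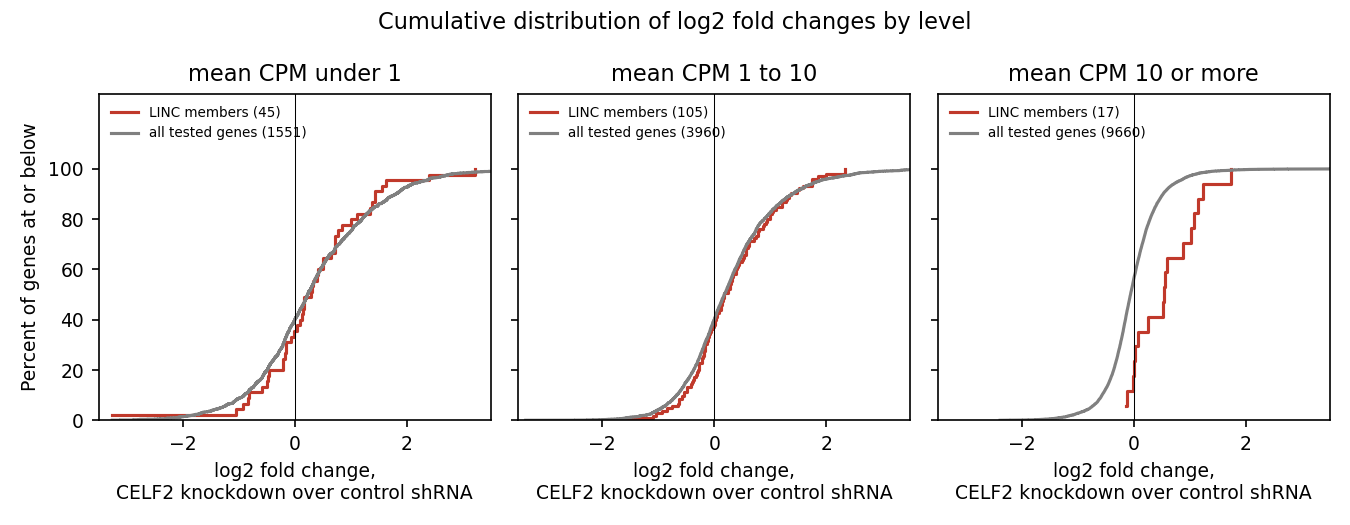
Cumulative percent of genes (y axis) at or below each log2 fold change (x axis, CELF2 knockdown over control shRNA), in 3 ranges of mean level, for LINC members and for all tested genes. The curves lie close together under 1 CPM and at 1 to 10 CPM, with medians of 0.30 against 0.23 and 0.18 against 0.18. They lie apart at 10 CPM and above, with medians of 0.53 against -0.06. In that range the median level was 17.0 CPM for members and 47.0 CPM for all genes, so levels are not matched.

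The 5 members with the smallest adjusted p were LINC00957, LINC02577, LINC00342, LINC00514 and LINC00668. LINC00668 was chosen for this ranking after its values were seen, and the others were also among the largest differences. The RefSeq table of promoters (GRCh38.p14, 250 bases before to 50 after a gene's start) held 3 of them, LINC00514 under its newer symbol GREP1. LINC02577 and LINC00342 are named only. The 3 promoters are shown 5′ to 3′ on the strand of the gene because their genes are among the higher ones with the smallest adjusted p, and capitals mark GGGCGG, the GC box bound by Sp1-family factors, searched on both strands. They are chr7:44038799-44039098 (plus strand), chr16:2988012-2988311 (plus strand) and chr18:6929820-6930119 (minus strand).
LINC00957: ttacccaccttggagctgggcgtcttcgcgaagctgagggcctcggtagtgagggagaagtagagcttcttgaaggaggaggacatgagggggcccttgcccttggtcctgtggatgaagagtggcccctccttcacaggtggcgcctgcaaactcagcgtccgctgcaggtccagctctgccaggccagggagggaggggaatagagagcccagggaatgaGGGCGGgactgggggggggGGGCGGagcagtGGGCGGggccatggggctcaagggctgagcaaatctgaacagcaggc
LINC00514: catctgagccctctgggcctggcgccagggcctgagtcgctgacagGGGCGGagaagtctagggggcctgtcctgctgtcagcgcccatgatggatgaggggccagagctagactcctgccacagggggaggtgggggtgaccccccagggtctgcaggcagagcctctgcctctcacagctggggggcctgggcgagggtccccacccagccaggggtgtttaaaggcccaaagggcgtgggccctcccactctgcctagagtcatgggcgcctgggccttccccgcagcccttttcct
LINC00668: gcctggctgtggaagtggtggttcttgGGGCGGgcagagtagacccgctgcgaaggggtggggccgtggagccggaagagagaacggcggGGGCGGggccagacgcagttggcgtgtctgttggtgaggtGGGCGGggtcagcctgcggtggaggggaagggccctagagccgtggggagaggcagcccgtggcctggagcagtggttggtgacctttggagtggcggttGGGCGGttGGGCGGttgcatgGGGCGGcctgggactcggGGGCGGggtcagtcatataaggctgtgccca
The LINC00957 window held 3 matches, that of LINC00514 held 1 and that of LINC00668 held 7. The TATA box (TATAAA), the CCAAT box, the AP-1 site (TGACTCA) and the E box (CACGTG) were searched in the same way, and none of them was in the 3 windows. No motif contains another. Over the 125 members matched in the table, 48% held the GC box, against 45.0% of all 35116 promoters. The TATA box was in 12% of member promoters and 11.5% of all promoters, and the CCAAT box in 38.4% of member promoters and 34.6% of all. The AP-1 site was in 8.8% of member promoters and 4.95% of all, and the E box in 7.2% of member promoters and 7.26% of all. Median GC content was 60.7% in member promoters and 58.7% in all promoters. The RefSeq start lay 122, 699 and 97 bases from the GENCODE v29 start of LINC00957, LINC00514 and LINC00668, so these windows describe the RefSeq start only.

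LINC00514 (ENSG00000262152, GRCh38 chromosome 16, 2988961 to 2994509, plus strand) was the most counted member. It had 2514 and 1541 counts in the CELF2 knockdown and 558 and 621 counts in the control shRNA, or 94.5 ± 41.8 CPM against 28.4 ± 12.0 CPM (SD, n = 2 each). Both knockdown libraries were above both controls, and knockdown replicate 1 was the highest. The log2 fold change was 1.74 ± 0.38 (SE, edgeR adjusted p = 0.0649), 3.34-fold, and it ranged from 1.20 to 2.26 when single libraries were left out. GENCODE v29 annotates it as a processed transcript whose exons overlap those of AC004233.2, a gene given there as protein-coding, so reads of the pair may not be fully separated. Its nearest other protein-coding gene in the table was PKMYT1, 8422 bases away, the kinase that holds CDK1 inactive before mitosis. PKMYT1 had 960 and 1011 counts in the knockdown and 2775 and 1471 in the control, and fell by 1.05 on the log2 scale (edgeR adjusted p = 0.0483). The call was lost without CELF2 knockdown replicate 2 (adjusted p = 0.109), without control shRNA replicate 1 (adjusted p = 0.195) and by limma-voom (adjusted p = 0.0558). PKMYT1 was the only nearest gene of a member to pass the test, in 1 of 123 pairs with both genes tested, against 0.877% of all genes. It differed in the direction opposite to LINC00514.

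LINC02577 (ENSG00000228742, chromosome 7, 106774955 to 106838480, plus strand) had 111 and 202 counts in the CELF2 knockdown and 53 and 27 in the control shRNA. Its level was 6.99 ± 2.14 CPM against 1.75 ± 0.206 CPM (SD, n = 2 each), with no overlap between groups. The log2 fold change was 1.99 ± 0.38 (SE, edgeR adjusted p = 0.0575). Its nearest protein-coding gene, PIK3CG, 26798 bases away, encodes a catalytic subunit of PI3-kinase and had 1 and 2 counts in the knockdown and 0 and 0 in the control, too few to compare.

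LINC00957 (ENSG00000235314, chromosome 7, 44039171 to 44042306, plus strand) had the smallest adjusted p of all members. It had 57 and 89 counts in the CELF2 knockdown and 18 and 11 in the control shRNA, or 3.28 ± 0.661 CPM against 0.649 ± 0.00703 CPM (SD, n = 2 each). The log2 fold change was 2.33 ± 0.45 (SE, edgeR adjusted p = 0.0565). Its count is uncertain, since 22.8% of its 50-base stretches also occur in transcripts of other genes, RASA4 most often, and its exons overlap those of RASA4CP on the other strand. Next to it, DBNL, an actin-binding adaptor gene 2334 bases away, had 93.3 ± 34.1 CPM in the knockdown and 170.8 ± 4.24 CPM in the control (log2 fold change -0.87, edgeR adjusted p = 0.103).

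LINC00668 (ENSG00000265933, chromosome 18, 6919496 to 6929966, minus strand) had 342 and 355 counts in the CELF2 knockdown and 204 and 131 in the control shRNA. In CPM the libraries of a group lay close together, at 15.9 ± 1.36 in the knockdown and 7.54 ± 0.346 in the control (SD, n = 2 each). The log2 fold change of 1.08 ± 0.25 (SE, edgeR adjusted p = 0.0692) stayed between 1.00 and 1.16 when single libraries were left out.

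Among the other members with large, non-overlapping differences, several had few counts. By the rule for size, which took members of at least 0.5 CPM on average with no overlap, 57 were eligible as higher and 18 as lower. LINC01133, a long noncoding RNA reported to bind the splicing factor SRSF6 in colorectal cancer cells, had 13 and 29 counts in the CELF2 knockdown and 0 and 4 in the control shRNA. Its log2 fold change of 3.22 ± 1.05 (SE, edgeR adjusted p = 0.137) rests on 1 control library at 0 and depends on the prior count, and it was 1.94 without control shRNA replicate 1 and 7.504 without control shRNA replicate 2. LINC01833, which starts beside SIX3, a homeobox gene of forebrain and eye development, had 13 and 25 counts in the knockdown and 4 and 3 in the control (log2 fold change 2.39 ± 0.65, edgeR adjusted p = 0.095). LINC02560 had 48 and 27 counts in the knockdown against 13 and 3 in the control (log2 fold change 2.34), with replicate 1 the higher library in both groups. It was 1.74 without CELF2 knockdown replicate 1 and 3.24 without control shRNA replicate 1. In LINC02635 the counts were 94 and 54 in the knockdown and 32 and 12 in the control (log2 fold change 1.86), and in LINC02298 they were 70 and 61 in the knockdown and 28 and 13 in the control (log2 fold change 1.74). LINC00887 had 38 and 50 counts in the knockdown and 11 and 14 in the control, and LINC01186 had 37 and 35 in the knockdown and 14 and 8 in the control, both with a log2 fold change of 1.74. LINC02635 was 1.27 without CELF2 knockdown replicate 1, and LINC00887 was 2.34 without control shRNA replicate 2. These 7 genes had edgeR adjusted p-values of 0.0841 to 0.137.

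**Figure D3:**
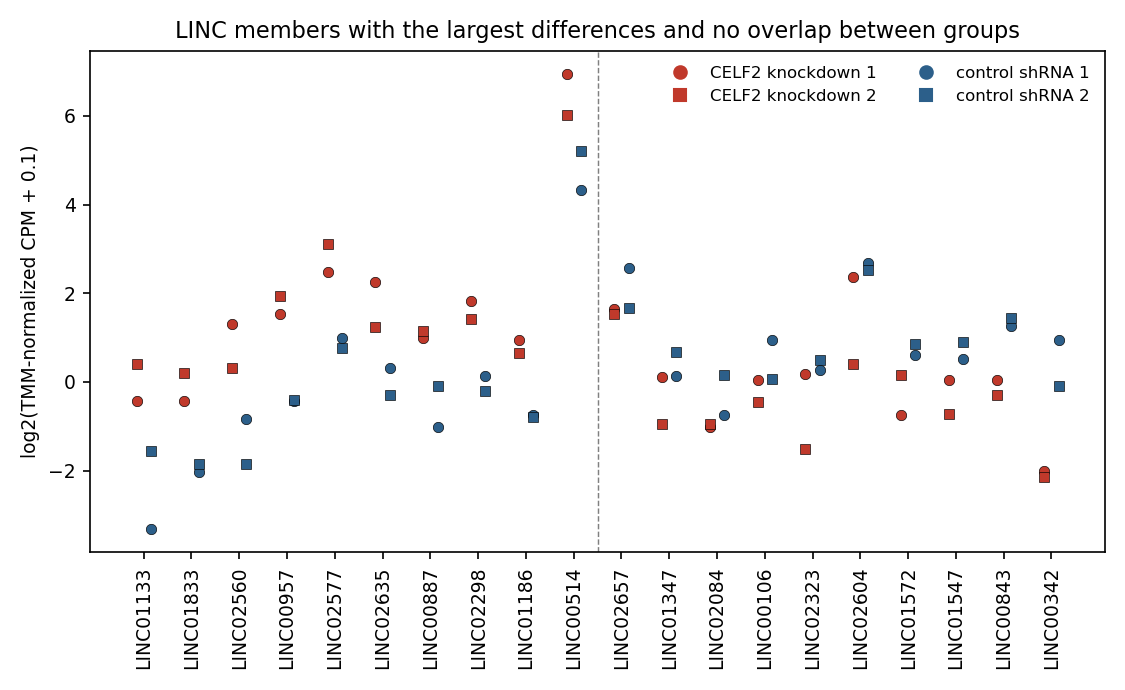
Level of the 10 members with the largest positive and the 10 with the largest negative log2 fold change among those with non-overlapping groups, as log2 of TMM-normalized CPM plus 0.1, with 1 point per library. CELF2 knockdown points lie above control shRNA points left of the dashed line and below them right of it, and LINC00514 is the highest at 124 and 64.9 CPM in the knockdown against 19.95 and 36.9 CPM in the control.

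The lower members were fewer and smaller in difference, with LINC00342 as the exception. LINC00342 (ENSG00000232931, chromosome 2, 95807118 to 95816215, minus strand) had 3 and 3 counts in the CELF2 knockdown and 51 and 14 in the control shRNA. Both knockdown libraries were at the floor of 3 counts. Summed over libraries and scaled by depth, the knockdown level was 9.75% of the control level, with an exact 95% interval of 3.45% to 22.4% that covers counting error only. The log2 fold change was -3.26 ± 0.69 (SE, edgeR adjusted p = 0.062). Control shRNA replicate 1 was over 2-fold above the next library, and without it the value was -2.56. Its count is uncertain too, with 28.5% of its 50-base stretches shared with other genes, AC092683.1 most often.

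LINC00843 had 19 and 17 counts in the CELF2 knockdown and 64 and 44 in the control shRNA (log2 fold change -1.56 ± 0.44, edgeR adjusted p = 0.101). Its newer symbol, TIMM23B-AGAP6, marks it as a readthrough product, its exons overlap those of TIMM23B, and 70.5% of its 50-base stretches are shared, so its reads cannot be assigned with certainty. LINC01547 had 0.938 and 0.505 CPM in the knockdown against 1.32 and 1.78 CPM in the control (log2 fold change -1.10), and LINC01572 had 0.494 and 1.01 CPM in the knockdown against 1.43 and 1.72 CPM in the control (log2 fold change -1.04). LINC02604 had 5.08 and 1.22 CPM in the knockdown and 6.29 and 5.64 CPM in the control, and its log2 fold change of -0.93 ran from -2.28 to -0.24 as single libraries were left out, so replicate 2 of the knockdown sets its size. LINC02657, now named LASTR and known to bind the spliceosome recycling factor SART3, had 3.01 and 2.78 CPM in the knockdown and 5.86 and 3.09 CPM in the control (log2 fold change -0.64 ± 0.41, edgeR adjusted p = 0.407). The other 4 of the 10 largest lower differences, LINC02323, LINC00106, LINC02084 and LINC01347, had log2 fold changes of -0.92, -0.85, -0.84 and -0.81. With single libraries left out, LINC02323 ran from -2.22 without CELF2 knockdown replicate 1 to -0.22 without CELF2 knockdown replicate 2, and LINC01347 was -1.52 without CELF2 knockdown replicate 1. LINC01572 was -1.66 without CELF2 knockdown replicate 2.

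Per length, the highest members were LINC02434 at 19.7 RPKM, LINC01518 at 17.9, LINC01615 at 16.6 and LINC00514 at 14.3, as means over the 4 libraries. The next were LINC00847 at 8.41 RPKM, LINC00888 at 7.08, LINC00294 at 6.30 and LINC01503 at 6.06. The level of LINC02434 was 10.5 and 16.8 CPM in the CELF2 knockdown and 11.7 and 14.1 CPM in the control shRNA, with overlapping groups (log2 fold change 0.08 ± 0.30). LINC01518 was close to level, at 10.1 and 9.31 CPM in the knockdown and 9.08 and 8.67 CPM in the control. LINC01615 was higher in both knockdown libraries, at 24.9 and 20.5 CPM against 10.2 and 14.6 CPM in the control (log2 fold change 0.88 ± 0.26, edgeR adjusted p = 0.112). LINC00888 had 18.5 and 23.0 CPM in the knockdown against 6.44 and 12.4 CPM in the control (log2 fold change 1.15 ± 0.34, edgeR adjusted p = 0.11), and LINC00847 had 25.02 and 24.1 CPM in the knockdown against 17.3 and 16.1 CPM in the control (log2 fold change 0.56 ± 0.20, edgeR adjusted p = 0.165). LINC00294, whose exons overlap those of CSTF3, overlapped between groups, with 31.9 and 17.4 CPM in the knockdown and 16.0 and 18.0 CPM in the control. 2 abundant members, chosen after their values were seen, were level. LINC01278 had 35.7 and 34.9 CPM in the knockdown and 33.1 and 37.2 CPM in the control (log2 fold change 0.01 ± 0.18). LINC01578, now CHASERR, which holds down its neighbour CHD2, had 16.7 and 17.3 CPM in the knockdown and 15.9 and 18.2 CPM in the control (log2 fold change -0.01 ± 0.22).

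**Figure D4:**
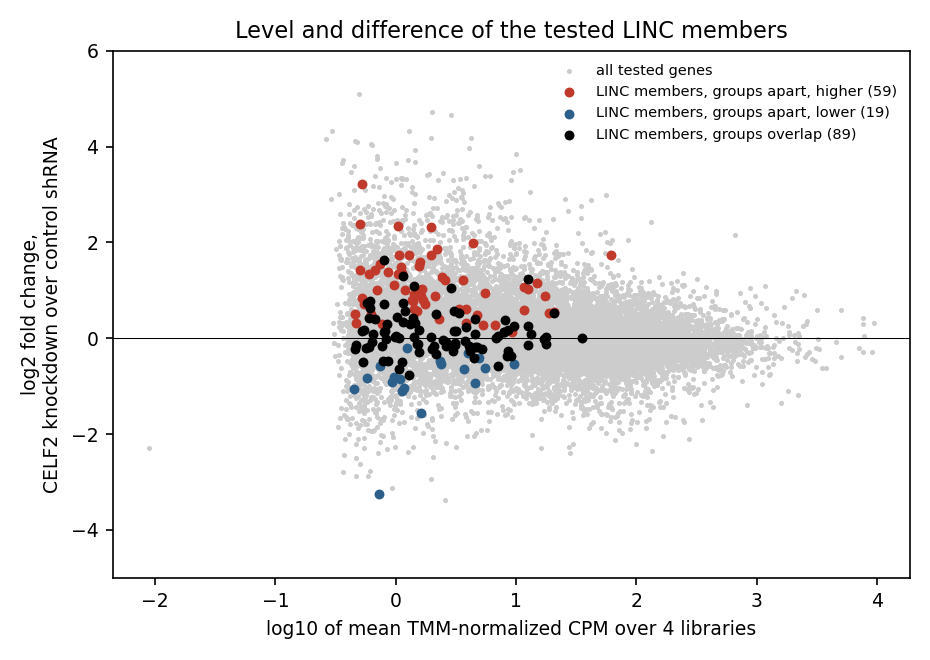
Log2 fold change (y axis, CELF2 knockdown over control shRNA) against log10 of the mean level in TMM-normalized CPM (x axis) for the 167 tested members, 1 point each. Differences spread widest at low levels, and LINC00514 stands at the high end of the level axis with a log2 fold change of 1.74.

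A list of 24 LINC genes with described roles, mostly in squamous or other carcinomas, held 18 symbols of the table, of which 10 were members, and 0 of these passed the test. The rest were not found under the listed symbols, and other symbols of those genes were not searched. LINC00511, described as a scaffold for the histone methyltransferase EZH2, had 16.0 and 12.2 CPM in the CELF2 knockdown and 10.1 and 8.67 CPM in the control shRNA (log2 fold change 0.59 ± 0.27, edgeR adjusted p = 0.249). LINC01116 had 7.85 and 7.79 CPM in the knockdown and 11.9 and 10.8 CPM in the control (log2 fold change -0.54 ± 0.26, edgeR adjusted p = 0.271), and 22.2% of its 50-base stretches are shared with other genes. LINC01503, a TP63-driven RNA of squamous cancers, had 8.78 and 12.2 CPM in the knockdown and 8.76 and 8.85 CPM in the control. LINC00346, now PRECSIT, a p53-regulated RNA of cutaneous squamous carcinoma that activates STAT3 signalling, had 4.24 and 3.45 CPM in the knockdown and 5.33 and 3.27 CPM in the control. Neither separated the groups. LINC00467 had 2.17 and 1.73 CPM in the knockdown against 2.40 and 3.27 CPM in the control, and LINC00963 had 4.54 and 4.001 CPM in the knockdown against 3.65 and 3.21 CPM in the control. The groups overlapped in LINC00472, LINC00460 and LINC00662, with log2 fold changes of -0.32, 0.15 and 0.25. Outside the member rule, LINC00941, a repressor of keratinocyte differentiation, and LINC00974 and LINC01614 had 0 counts in all libraries. LINC00520 had 11 and 17 counts in the knockdown and 5 and 3 in the control.

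The annotation did not place every member between genes. All 174 IDs were found in GENCODE v29 (GRCh38), on 23 chromosomes with 22 members on chromosome 1. There 135 are typed as lincRNA, 17 as processed transcript, 9 as antisense and 9 as transcribed unprocessed pseudogene. Each member was placed in 1 class, with shared exons taken first, then position inside or across a gene, then opposite starts. Of the members, 133 lay apart from protein-coding genes, 20 shared an exon stretch with one and 5 lay inside or across one without a shared exon. Of the rest, 16 started within 5 kb of a protein-coding start on the other strand. LINC00476 and LINC00649 also have such a start, at 276 and 446 bases, but are classed by shared exons. The median log2 fold change of the tested members was 0.31 in the 128 that lie apart, 0.15 in the 20 with a shared exon, 0.00 in the 5 inside or across a gene and 0.27 in the 14 with a nearby opposite start. Exons of 66 members overlapped those of some other gene, on the opposite strand in 50, and the sources used here do not give whether counting used strand. In 30 members over 20% of 50-base stretches were shared with other genes. Those 30 had a median log2 fold change of -0.17, against 0.32 for the other 137 tested. Members were shorter than protein-coding genes with at least 40 counts, with a median exon length of 2651 bases and 4 merged exons against 5105 bases and 11 exons. They were alike in GC content, at 49.0% against 49.6%.

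Over the 123 tested members whose nearest protein-coding gene in the table was also tested, the differences of the pair showed almost no relation. Pearson's r of the log2 fold changes was 0.015 and Spearman's rho 0.033, as a description across pairs that share the same 4 libraries, and 52.8% of pairs had the same sign. Among the 14 pairs classed by opposite starts within 5 kb, r was 0.62 and rho 0.53, and 9 pairs had the same sign. They include LINC01833 and SIX3, and SIX3 had only 4 and 17 counts in the control shRNA. Left out by the order of the classes were LINC00649 with ATP5PO (log2 fold changes 0.62 and -0.82) and LINC00476 with ERCC6L2 (-0.09 and -0.43). In the 12 pairs whose member shares an exon stretch with a protein-coding gene, r was -0.43 and rho -0.31. The gene that shares the exon need not be the paired one. Among these 12 is LINC00514 with PKMYT1 (log2 fold changes 1.74 and -1.05), where the shared exons are those of AC004233.2. The part of this pair in r was not tested. In the 93 pairs of members that lie apart, r was -0.04 and rho -0.02. These position classes were not compared by a test. The following pairs were chosen after their values were seen. LINC00205 had 22.3 and 11.2 CPM in the CELF2 knockdown and 8.58 and 7.90 CPM in the control shRNA (log2 fold change 1.02 ± 0.35, edgeR adjusted p = 0.154). Its neighbour POFUT2, which adds O-fucose to thrombospondin repeats and lies 152 bases away, had 880 and 1107 counts in the knockdown and 764 and 499 in the control (log2 fold change 0.66 ± 0.18, edgeR adjusted p = 0.094). LINC01137 had 5.63 and 4.55 CPM in the knockdown and 1.75 and 2.67 CPM in the control (log2 fold change 1.21 ± 0.39, edgeR adjusted p = 0.13), beside ZC3H12A, an endoribonuclease gene 141 bases away with a log2 fold change of 0.83 ± 0.30. LINC01547 and FAM207A, 97 bases apart, had log2 fold changes of -1.10 and -0.53. In contrast, LINC01135 had a log2 fold change of -0.08 beside JUN, the AP-1 subunit gene 801 bases away, with 0.84 ± 0.21 (edgeR adjusted p = 0.0837). Each of these neighbours lay short of the threshold.

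**Figure D5:**
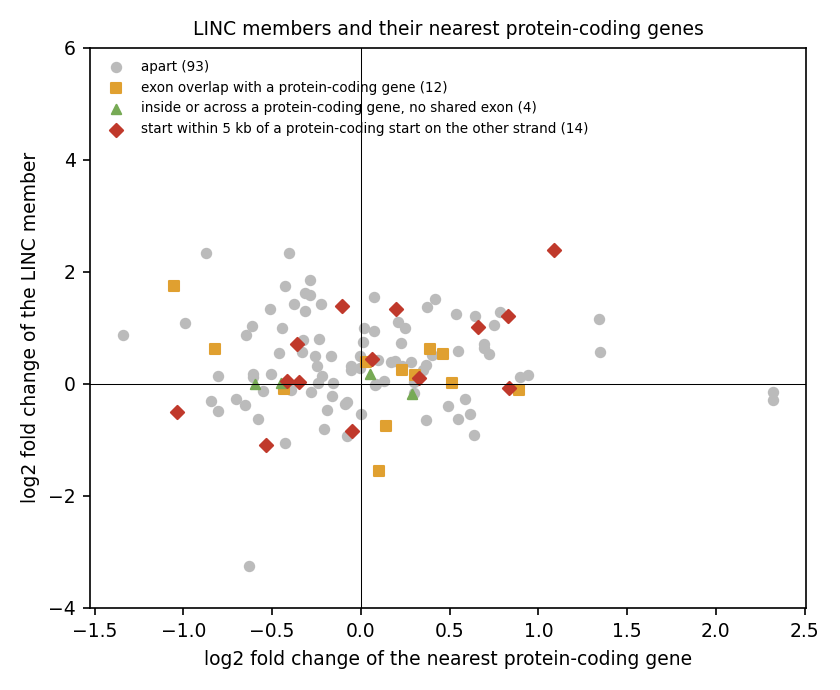
Log2 fold change of each LINC member (y axis) against that of its nearest protein-coding gene (x axis), CELF2 knockdown over control shRNA, for 123 pairs marked by position class. The cloud as a whole has no slope (r = 0.015). The 14 pairs classed by opposite starts within 5 kb have r = 0.62. The 12 pairs whose member shares an exon stretch with a protein-coding gene, not always the paired one, have r = -0.43.

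Other noncoding name classes with at least 40 counts were set beside the members as counts only. Antisense genes named -AS had a median log2 fold change of 0.13 over 267 tested genes, and lncRNAs known only by a clone name had 0.14 over 697. Divergent transcripts named -DT had 0.37 over 38, with 42.1% higher and 2.63% lower without overlap, against 27.1% and 27.8% of all genes and 34.7% and 19.1% of genes at 1 to 10 CPM, where the median -DT gene lies. Small nucleolar RNA host genes (SNHG), spliced noncoding hosts of snoRNAs, went the other way, with a median of -0.43 over 22 tested genes, 63.6% lower and 4.55% higher without overlap, against 33.1% and 23.1% of genes at 10 CPM or more, where the median SNHG gene lies. The 1 called SNHG gene was SNHG12, with 387 and 459 counts in the CELF2 knockdown and 1378 and 739 in the control shRNA (log2 fold change -1.28). Its call was lost without CELF2 knockdown replicate 2 (edgeR adjusted p = 0.105), without control shRNA replicate 1 (adjusted p = 0.16) and by limma-voom (adjusted p = 0.0558). By edgeR 1 gene of the -AS class, 0 of the -DT class, 1 of 23 microRNA host genes and 5 of the clone-named class were called, beside 0.877% of all genes and 0 of the LINC members. The classes were not tested against each other.

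Genes of nuclear RNA decay, which removes many long noncoding RNAs, were read from a list of 28 genes, all tested. The list also holds cap-binding proteins (NCBP1, NCBP2 and NCBP3), polyA polymerases (PAPOLA and PAPOLG) and genes of cytoplasmic decay (XRN1 and DCP2). By edgeR 0 were called, against 0.877% of all genes, and 7 had an unadjusted p under 0.05 (25%, against 22.1% of all genes). The median log2 fold change was -0.30. Limma-voom called 0, and DESeq2 called 5, all lower (17.9%, against 4.18% of all genes). Without the filter on low counts edgeR called 5, all lower. In that fit 3.07% of all genes, and 5.24% of those with at least 40 counts, were called lower. With the replicate number as a block edgeR called 4, all lower (against 4.13% of all genes), and with RLE size factors it called 0. Without overlap, 20 of the 28 were lower in the CELF2 knockdown (71.4%, against 27.8% of all genes and 33.1% of genes at 10 CPM or more) and 0 were higher. EXOSC2, a cap subunit of the exosome, had 353 and 608 counts in the knockdown and 1636 and 802 in the control shRNA (log2 fold change -1.30 ± 0.24, edgeR adjusted p = 0.0536). The core ring subunits EXOSC8 and EXOSC9 both had a log2 fold change of -0.77 (edgeR adjusted p = 0.075 and 0.071), and ZCCHC8, the scaffold of the nuclear exosome targeting complex, had -0.73. The helicase MTREX had -0.30 and the nuclease EXOSC10 -0.44, while ZFC3H1, of the polyA tail exosome targeting connection, had 0.28. The part of these levels in the level of the LINC members was not tested.

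At the count limit, LINC01096 and LINC02595 had 40 counts and LINC00271 41 just inside it. Just outside, LINC00853, LINC00885 and LINC01550 had 39 each. The 7 members that were not tested were LINC01293, LINC00271, LINC01431, LINC01096, LINC00589, LINC02582 and LINC01297. LINC02582 had 8 and 54 counts in the CELF2 knockdown and 0 and 1 in the control shRNA. With no filter on low counts edgeR called LINC02582 higher (log2 fold change 5.58 ± 0.97, SE, adjusted p = 8.5e-07). That size rests on control counts near 0, and CELF2 knockdown replicate 2 stood over 2-fold above the next library. LINC01293 had 4 and 7 counts in the knockdown and 42 and 7 in the control, where replicate 1 stood alone.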

How the data were processed

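PolyA RNA from 2 CELF2 knockdown and 2 control shRNA samples was grouped by sample title. The authors deposited 1 table of raw counts per gene. HISAT2, edgeR and GRCh38 are named per the submitters' processing notes, and the sources used here name no counter, annotation release or strand setting. Per-sample columns left unused numbered 0, and every row named a gene. Replicates were distinct libraries (chi-square per degree of freedom 52.6 in the knockdown and 59.8 in the control).

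From these counts, edgeR 4.0.16 (R 4.3.3) gave quasi-likelihood tests with TMM, the filterByExpr filter at a minimum count of 10 (CELF2 kept) and Benjamini-Hochberg adjustment over 15171 genes, at a threshold of 0.05. The fit was checked on simulated data for the size of its log2 fold changes only. That simulation gave every gene the same spread, smaller than in these libraries, so it does not show what the test can detect here. The common biological coefficient of variation of the real libraries was 21.6%. Alternatives were RLE size factors, DESeq2 1.42.0, limma-voom (limma 3.58.1), no filter, a replicate block, single libraries left out, a minimum sum of 100 and raw library totals. RPKM uses merged exon length. Positions came from GENCODE v29, and 50-base stretches were compared between its transcripts. Newer symbols came from a table of gene names. Promoters were matched by symbol, older or newer.

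Named genes were the members called, the 10 largest log2 fold changes per direction with at least 0.5 CPM and no overlap, the 8 highest per length, the role list, the genes at the count limit and the nearest genes. Members and lists were chosen with earlier results of these data known. Intervals and floors cover counting error only.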

Additional observations from a re-analysis of the deposited data

How the results depend on the processing

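The count of all genes called was 133, and it was 211 with RLE size factors, 1382 with DESeq2, 0 with limma-voom and 2139 without the filter on low counts. It ran from 0 (without control shRNA replicate 1) to 616 (without control shRNA replicate 2) when single libraries were left out, with 7 without CELF2 knockdown replicate 2 and 368 without CELF2 knockdown replicate 1. Members called higher numbered 0, against 8 with DESeq2, 19 without the filter, and 0 to 4 with single libraries left out. Members called lower numbered 0, against 1 with DESeq2, 2 without the filter, and 0 to 1 with single libraries left out. RLE size factors and limma-voom left both member counts at 0. The replicate numbers are not said to mark a shared culture or day. Across tested genes, the difference between replicates 1 and 2 in the knockdown had a correlation of 0.203 with that in the control. With the replicate block 1579 genes (10.4%), 11 higher members and 1 lower member (6.59% and 0.599%, against 6.28% and 4.13% of all genes) were called. The median log2 fold change of the members, 0.25, ran from 0.21 to 0.33 with single libraries left out, 0.30 of it without control shRNA replicate 2. The ratio of summed levels was 1.31, and 1.36 with raw library totals.

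Of 315 values of 35 named members under alternatives, 7 changed sign, in 6 members whose groups overlap. Over the fits without 1 library each, LINC00346 ran from -0.45 to 0.23, LINC00460 from -0.38 to 0.55, LINC00472 from -0.89 to 0.76, LINC00662 from -0.037 to 0.61, LINC01503 from -0.0080 to 0.48 and LINC02434 from -0.30 to 0.39, with -0.054 for LINC02434 without control shRNA replicate 1. The cause was not tested. LINC00342, LINC00514, LINC00888, LINC00957 and LINC02577 were each called in 4 alternatives. Low counts limit the members: 52 of 174 averaged under 1 CPM, where 3 counts are 0.107 to 0.178 CPM.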

Other observations

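In 10 members the same-numbered libraries of both groups differed together by over 2-fold, replicate 2 being higher in 5 and replicate 1 in 5. These members were chosen after their values were seen. LINC01127, 4677 bases from IL1R2, the decoy receptor of interleukin 1, had 1.83 and 12.8 CPM in the CELF2 knockdown and 2.75 and 16.6 CPM in the control shRNA. IL1R2 itself had 14 and 94 counts in the knockdown and 22 and 114 in the control, with replicate 2 high in both groups too. LINC00707 had 1.28 and 4.63 CPM in the knockdown and 1.25 and 5.41 CPM in the control, and LINC01940 had 0.74 and 2.40 CPM in the knockdown and 0.501 and 2.14 CPM in the control. LINC00910 had 6.96 and 28.3 CPM in the knockdown and 4.33 and 10.8 CPM in the control, and its log2 fold change of 1.24 ± 0.66 (SE) ran from -0.11 to 2.04 as single libraries were left out. LINC02518 had 2.27 and 0.211 CPM in the knockdown and 0.608 and 0.119 CPM in the control, with replicate 1 high in both groups.

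A single library stood over 2-fold above the next in 17 members, in 8 of them CELF2 knockdown replicate 1, in 5 CELF2 knockdown replicate 2, in 3 control shRNA replicate 1 and in 1 control shRNA replicate 2.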
